A study of Mus musculus with 25 samples.

Results

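The regions described here are stretches of chromatin that were listed as open in a Notch-dependent way. They met no region listed for any of the 6 protein pairs mapped in the same cell line. They were chosen from the list of Notch-dependent FAIRE regions on the 19 autosomes and the X chromosome as those that share no base with a region of any of the 6 SpDamID lists. There were 738 of them among 2396 Notch-dependent regions, 30.8% (exact Clopper-Pearson 95% interval 29.0 to 32.7%). The overlaps with the 6 lists chose these regions, so the absence of a complex is not a result, and everything tied to it is given as a description.

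All libraries came from mK4, a line of mouse cells that was made from the mesenchyme of the embryonic kidney. Labelled protein pairs were N1-D with RBP-AM-Ert2, with MAML-AM-Ert2 and with p300-AM-Ert2 (3 libraries each), N1-D with N1-AM-Ert2 (2 libraries), and Mef2c-D with MAML-AM-Ert2 or with p300-AM-Ert2 (1 library each), and 3 DAM libraries served as their control. FAIRE had 3 N1wt libraries, 1 N1wt input and 3 control libraries, and myc-tag ChIP had 1 N1 library and 1 input. The strain label was CD1 except for CD2 in 1 N1/N1 library and CD3 in the Mef2c/MAML library, and no label gives a treatment, a dose or a time. Each deposited list stands for all libraries of its group, so no value below has a replicate error, the depth per library is unknown, and no test over samples could be run. Intervals cover counting error over regions only. Regions that lie close together or share a library are not independent, and no p-value over regions is given.

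Notch receptors are cut after ligand binding, and the freed intracellular part of N1 (Notch1) moves to the nucleus. There it binds RBP, the DNA-binding protein of the pathway, together with the co-activator MAML, which brings in the acetyltransferase p300. SpDamID marks GATC sites where 2 fused proteins each bring an inactive part of the Dam methylase, so it reads the meeting of 2 proteins on DNA. FAIRE reads open chromatin whatever protein lies there. An open region can therefore be listed as Notch-dependent with no Notch complex listed on it, which is the case examined here. A region missing from a SpDamID list is one that was not called at a confidence level of 0.999 or more over Dam, and whether any protein was bound there below that level is unknown. The data hold no base sequence and no gene annotation of build mm9 was used, so regions are named by their mm9 positions, and genes, GATC sites and motifs were not analysed here.

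The regions without a listed complex were shorter than the Notch-dependent regions with one. Their median length was 720.5 bp (95% interval of the median 706 to 745 bp), against 871.5 bp (853 to 889 bp) for the 1658 with a complex. The quartiles were 602.5 and 866.75 bp, and the whole range was 320 to 3756 bp. The 109 regions that met only a Mef2c pair had a median of 740 bp, the 1059 that met 1 to 3 of the N1 pairs 835 bp, and the 490 that met all 4 N1 pairs 992 bp. A longer region offers more bases to overlap, so length is not independent of the choice. In an alternative chosen after the data were seen, every peak was replaced by a window of 600 bp around its centre, which widens shorter peaks. The 791 peaks with no complex in the window had a median full length of 742 bp (719 to 755 bp), against 866 bp (849 to 883 bp) for the 1605 with one. MACS scores were also lower, with a median of 115.53 (110.24 to 122.05) without a complex and 140.68 (135.72 to 145.27) with one. Across the 738 regions, length and score had a Spearman rho of 0.436.

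Length was therefore held within bins, and the other FAIRE regions, the 17083 of the total list that overlap no Notch-dependent region, were treated in the same way. Of these other regions 6650 (38.9%) had no complex, a larger share than the 30.8% of the Notch-dependent ones. The order was the same in each length bin. Up to 663 bp, 45.1% (41.0 to 49.2%) of Notch-dependent regions and 56.0% (54.3 to 57.8%) of other regions had no complex. From 664 to 815 bp the shares were 39.4% (35.5 to 43.4%) of Notch-dependent and 48.5% (46.9 to 50.2%) of other regions. From 816 to 1042 bp they were 24.96% (21.6 to 28.6%) of Notch-dependent and 39.4% (37.9 to 40.9%) of other regions. In regions of 1043 bp and longer, 13.7% (11.1 to 16.8%) of Notch-dependent and 25.6% (24.6 to 26.7%) of other regions had none. With every peak replaced by a window of 600 bp around its centre, the shares were 33.0% of Notch-dependent and 46.2% of other regions. The other FAIRE regions were also shorter without a complex, with a median of 816 bp against 1000 bp with one. Their median MACS scores were 139.14 without and 162.79 with a complex. Shorter length and lower score without a complex were thus not particular to the Notch-dependent list.

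**Figure D1:**
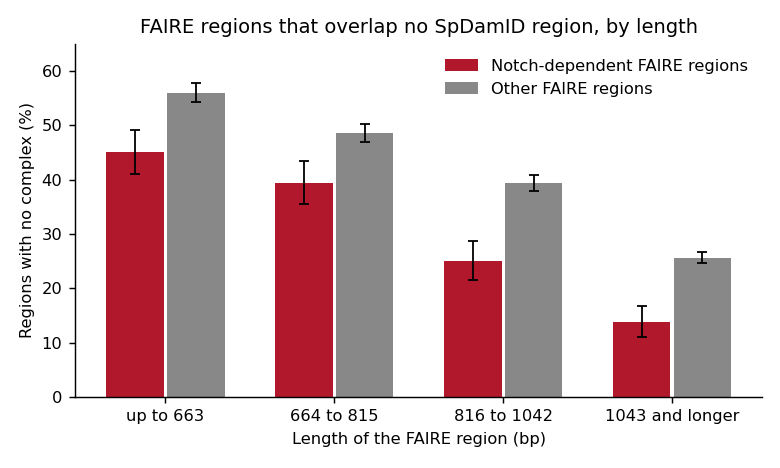
Share of FAIRE regions that overlap no SpDamID region (y axis, %) in 4 bins of region length (x axis, bp), for Notch-dependent regions (red) and other FAIRE regions (grey), with exact 95% intervals as bars. In all 4 bins the Notch-dependent share is lower, from 45.1% against 56.0% in the shortest bin to 13.7% against 25.6% in the longest.

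The share without a complex was smaller at higher FAIRE scores. Among Notch-dependent regions it was 40.2% (241 of 599) in the lowest score quartile, 33.1% in the second, 27.6% in the third and 22.2% (133 of 599) in the highest. Among the other FAIRE regions it was 45.8% in the lowest, 40.6% in the second, 36.6% in the third and 32.7% in the highest quartile, each list having its own quartiles. Thus 133 of the 738 had a MACS score of 196.73 or more. Length was not held within bins here, and the part that length has in these shares was not tested.

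The highest FAIRE scores in the set belonged to 5 regions on 4 chromosomes. The first, chr1:83116195-83117522, had a MACS score of 737.49 and lay 13968 bp from the nearest N1 region and 1063 bp from the nearest Mef2c region. The second, chr1:36382497-36383515, scored 488.75 and lay 28898 bp from N1. The region chr11:107289170-107289864 scored 470.56 at 2397 bp from N1. These 3 lay at quite different distances from N1. Next came chr18:36434096-36435086 with a score of 442.67 at 7509 bp, and chr17:68536811-68537581 with 439.23 at 21341 bp from N1. Across all 738 regions the Spearman rho of score and distance to N1 was 0.024.

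The longest of the set, chr1:87494538-87498293, spans 3756 bp and scored 167.37. It lies 50387 bp from the nearest N1 region, overlaps N1 ChIP and is absent from the total FAIRE list. The other 4 of the 5 longest measured 1786 to 2073 bp and lay 651 to 4144 bp from N1. The longest of those 4, chr5:109981971-109984043, combined 2073 bp with a score of 433.41, and its distance to both the nearest N1 and the nearest Mef2c region was 2173 bp.

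How far these regions lie from the complexes was read from the nearest edge of a SpDamID region, with adjacent regions counted as 1 bp apart. The median distance to the nearest region of any N1 pair was 7970 bp (6908 to 9585 bp), with quartiles at 2213.5 and 21354.5 bp. Within 1 kb of an N1 region lay 117 of the 738 (15.9%), within 10 kb 400 (54.2%) and within 100 kb 695 (94.2%). A distance above 0 is set by the choice, and so the other FAIRE regions without a complex, which had to pass the same rule, are the fitting comparison. They lay closer, with a median of 5696 bp (5366 to 6210 bp), and 25.2% of the 6650 had an N1 region within 1 kb and 61.1% within 10 kb. At 100 bp or less the intervals overlapped, with 3.52% (2.31 to 5.12%) of the Notch-dependent and 4.56% (4.07 to 5.09%) of the other regions.

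**Figure D2:**
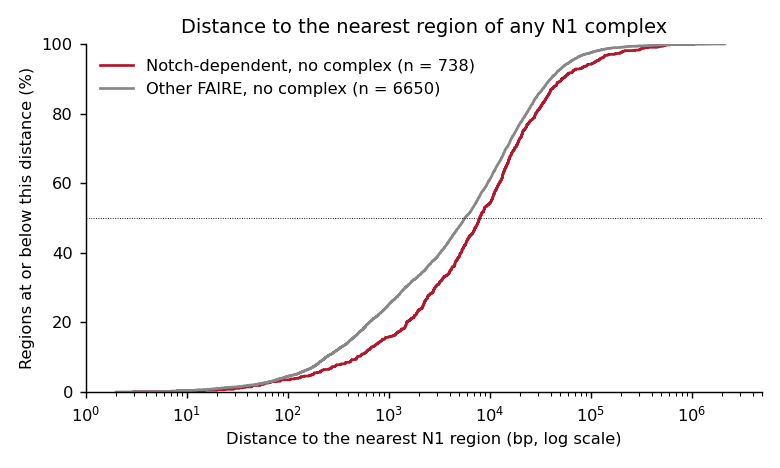
Cumulative share of regions (y axis, %) by distance to the nearest region of any N1 pair (x axis, bp, log scale), for the 738 Notch-dependent regions (red) and the 6650 other FAIRE regions (grey) without a complex. The red line runs to the right of the grey one over most of the range, with medians of 7970 and 5696 bp.

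The longer distance of the Notch-dependent regions appeared in each length bin, by different amounts. Up to 663 bp the medians were 11007 bp (8380 to 13476 bp) for Notch-dependent and 7440 bp (6722 to 8107 bp) for other regions. In the next bin they were 7175.5 and 6454.5 bp, then 7619 and 4854.5 bp, and in the longest bin 5643 bp (2653 to 8503 bp) and 4541 bp (3955 to 5216 bp). Intervals overlapped in all bins but the shortest. By chromosome, the Notch-dependent median was the longer one on 17 of 20.

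The distance depended on which pair was asked, and to N1/p300 it was nearly equal in both groups. To N1/RBP the median was 19428 bp for Notch-dependent and 13364 bp for other regions, a ratio of 1.45. To N1/N1, the pair that reads out N1 dimers, it was 16319 and 12849 bp, a ratio of 1.27. To N1/MAML it was 32851 bp (28988 to 39257 bp) and 29582 bp (28128 to 30712 bp). To N1/p300 the medians were 21855 bp (19510 to 24726 bp) for Notch-dependent and 21818 bp (20763 to 22866 bp) for other regions. Of all 6 pairs the widest ratio was that of Mef2c/MAML, 1.80, with 11280.5 bp for Notch-dependent and 6269 bp for other regions. Mef2c/p300 gave 19907 and 17408 bp with overlapping intervals. Lists differ in their number of regions, so distances are comparable between the groups for 1 pair, not between pairs.

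**Figure D3:**
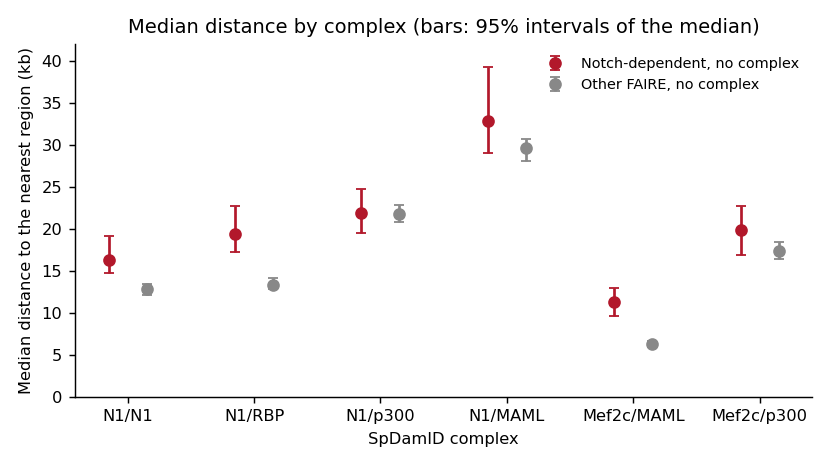
Median distance to the nearest region (y axis, kb) for each SpDamID pair (x axis), in Notch-dependent (red) and other FAIRE regions (grey) without a complex, with 95% intervals of the median. The groups are apart for N1/N1, N1/RBP and Mef2c/MAML, and their intervals overlap for N1/MAML and both p300 pairs.

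At close range, within 1 kb, both groups had overlapping intervals for the p300 pairs and separate ones for the other 4. An N1/RBP region lay that close to 8.13% (6.26 to 10.3%) of Notch-dependent and 17.5% (16.6 to 18.5%) of other regions without a complex. For N1/N1 the shares were 8.13% of Notch-dependent and 14.96% of other regions, for N1/MAML 2.98 and 7.65%, and for Mef2c/MAML 13.4 and 23.2%. For these 4 pairs the Notch-dependent share was the lower one in 4 of 4 length bins. For N1/p300 the shares were 8.27% (6.38 to 10.5%) of Notch-dependent and 9.13% (8.45 to 9.85%) of other regions, and for Mef2c/p300 7.32% (5.54 to 9.44%) and 8.27% (7.62 to 8.96%). With p300 the Notch-dependent share was lower in 2 of 4 bins for either pair. From 664 to 815 bp, 11.0% of Notch-dependent and 7.998% of other regions had a Mef2c/p300 region within 1 kb, and up to 663 bp the shares were 2.96 and 6.52%. Each Mef2c list comes from 1 library, and a difference between libraries cannot be told apart from one between pairs.

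Named the other way round, the nearest N1 region belonged to N1/N1 for 387 of the 738 (52.4%), to N1/RBP for 316 (42.8%), to N1/p300 for 308 (41.7%) and to N1/MAML for 177 (24.0%), with ties counted for each list. In the same order the lists hold 31936, 28281, 22358 and 16545 regions. These shares are therefore comparable between groups, not between pairs. Among the other FAIRE regions without a complex, the shares were 53.9% for N1/N1, 52.8% for N1/RBP, 35.4% for N1/p300 and 27.0% for N1/MAML. The share for N1/p300 was thus the higher one in the Notch-dependent regions and that for N1/RBP the lower one, a difference that was not tested. At the nearest distance a single N1 list was found for 467 of the 738 (63.3%) and all 4 lists for 51 (6.91%). For the other regions these shares were 59.3 and 8.05%.

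The scores of the nearest SpDamID regions were compared with those of their lists. The N1/RBP regions within 1 kb of 60 Notch-dependent regions had a median score of 361 (287 to 419), against 336 (320 to 354) beside other regions and 332 in the whole list. For N1/p300, 61 regions had one within 1 kb, with a median score of 269 (224 to 341), against 306 (288 to 328) beside other regions. The median of the whole list was 342, so both intervals lay below it, that of the Notch-dependent regions only just. Beside the Notch-dependent regions the median was 407.5 for N1/MAML (22 regions, whole list 366), 306.5 for N1/N1 (60 regions, whole list 285), 322 for Mef2c/MAML (99 regions, whole list 350) and 262.5 for Mef2c/p300 (54 regions, whole list 286), each with an interval that held the whole list's median. Scores are whole numbers that the authors gave for a pair over Dam, on a scale that the sources used here do not state.

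Within 50 kb on either side, the 738 regions had a mean of 5.04 N1 regions (median 4), against 5.40 (median 4) for other regions without a complex. Notch-dependent regions with a complex had 6.75 further N1 regions (median 5.5), those they overlap left out. No N1 region lay within 50 kb for 79 of the 738 (10.7%), against 4.76% of the Notch-dependent regions with a complex and 7.25% of the other regions without one. Mef2c regions gave a like picture, with none within 50 kb for 76 of the 738 (10.3%), against 4.96% of the other regions without a complex.

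The 5 most remote regions mark the far end. The most remote, chr6:104657237-104658384, lay 1057878 bp from any N1 region and 1935210 bp from any Mef2c region, with a MACS score of 142.57. Next were chr14:11386976-11387884 at 615746 bp from N1, chr1:100485609-100486719 at 551033 bp, chr15:90922622-90923338 at 522842 bp and chr4:13348438-13349063 at 514244 bp. All 5 were also in the total FAIRE list, with scores there of 100.87, 130.76, 83.62, 192.84 and 68.75 in the order named. The nearest N1 ChIP region to each of them was 245275 bp away or more.

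At the near end the choice rests on a few bases. The region chr7:149003362-149003958 missed the nearest N1 region by 3 bp, chr1:173367086-173368229 by 7 bp, chr8:129391232-129392135 by 8 bp, chr13:102003329-102004035 by 15 bp and chr13:115526169-115526807 by 20 bp. On the other side, the Notch-dependent regions with the smallest overlap shared 2 bases (chr17:56345554-56346519), 4 bases (chr15:25568844-25569632), 6 bases (chr6:118681922-118682402 and chr8:81686485-81687415) and 7 bases (chr1:186084836-186085637) with a SpDamID region. In all, 35 of the 738 (4.74%) lay within 100 bp of a SpDamID region, and 45 of the 1658 with a complex (2.71%) shared at most 100 bases. No single list decided the set: leaving 1 list out gave between 759 regions (without Mef2c/p300) and 867 regions (without N1/N1).

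N1 ChIP was not used by the choice. It overlapped 24 of the 738 (3.25%, exact interval 2.095 to 4.80%) and 53 of the 1658 with a complex (3.20%, 2.40 to 4.16%), beside 3.21% of the whole Notch-dependent list. Within length bins the shares were 1.48% without and 1.22% with a complex up to 663 bp, 1.69 and 1.93% in the next bin, and 4.0% (6 of 150) and 2.44% (11 of 451) from 816 to 1042 bp. From 1043 bp they were 12.2% (6.01 to 21.3%, 10 of 82) without and 6.02% (4.13 to 8.44%, 31 of 515) with a complex, and the intervals overlapped in every bin. Those with all 4 N1 pairs stood at 5.31% (3.50 to 7.68%) and those with 1 to 3 at 2.17% (1.38 to 3.24%). Those with only a Mef2c pair stood at 3.67% (1.01 to 9.13%, 4 of 109). Length was not held between these classes, whose median lengths were 992, 835 and 740 bp in the order named. The shares of other FAIRE regions were several times as large, 18.8% (17.9 to 19.8%) without a complex and 21.7% (20.9 to 22.5%) with one, 20.6% in all. Within each length bin the order of these other regions was the reverse. Up to 663 bp the shares were 7.24% without and 6.5% with a complex, and in the next bin 14.53 and 12.15%. From 816 to 1042 bp they were 21.23 and 16.98%, and from 1043 bp 32.53 and 31.8%. The gap between Notch-dependent and other regions without a complex was present in each length bin, from 1.48% (4 of 270) against 7.24% (122 of 1686) up to 663 bp, to 12.2% (10 of 82) against 32.5% (538 of 1654) from 1043 bp. The nearest N1 ChIP region lay at a median of 52872.5 bp (45295 to 61407 bp) from the 738 regions. For Notch-dependent regions with a complex it lay at 45672 bp (41187 to 50100 bp), an interval that overlaps that of the 738. For other regions without a complex it lay at 18714 bp (17291 to 20410 bp). Length was not held for these distances. ChIP comes from 1 library and 1 input.

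**Figure D4:**
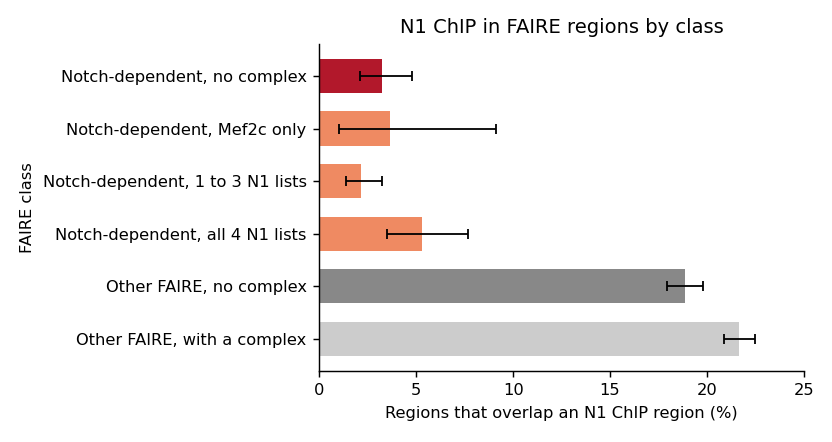
Share of FAIRE regions that overlap an N1 ChIP region (x axis, %) by class (y axis), with exact 95% intervals. The Notch-dependent regions without a complex, at 3.25%, lie among the other Notch-dependent classes (2.17 to 5.31%), and both classes of other FAIRE regions lie at 18.8 and 21.7%.

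The 24 regions in N1 ChIP held 41 ChIP regions, and 9 of them held 2 or more. The strongest ChIP region in each had a ratio of ChIP to input between 10.38 and 84.16, with a median of 17.7, where the authors' list starts at a ratio just above 10. The 5 with the highest ratio began with chr14:66242911-66244602, at 84.16 over a ChIP region of 1012 bp. It was followed by chr8:124192383-124193876 at 33.89, chr1:87494538-87498293 at 29.66, chr10:18463267-18463940 at 27.61 and chr1:85107639-85108924 at 27.5. The ChIP regions in the last 4 were short, 18, 208, 46 and 208 bp. Among these 5, the first had both the highest ratio and the longest ChIP region. A second of the 24, chr14:66248667-66249816, lies a few kb from that first one and held a ChIP region of 999 bp at a ratio of 20.91, an observation made after the values were seen. Of the 24, 4 had an N1 SpDamID region within 1 kb, and the median distance was 5030.5 bp.

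The total FAIRE list gave a second value for most of the set. Of the 738 regions, 680 (92.1%, 90.0 to 94.0%) were in it with identical ends, against 1590 of the 1658 with a complex (95.9%, 94.8 to 96.8%) and 94.7% of all Notch-dependent regions. A further overlap with different ends did not occur. The 58 absent from the total list had a median score of 75.78 and a median length of 657.5 bp, close to the lower score quartile of the set, 80.52. In the total list the median score was 146.53 (138.89 to 155.55) without a complex and 203.78 (194.55 to 211.54) with one.

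The same region usually scored lower in the Notch-dependent list than in the total list. Without a complex, the Notch-dependent score was below the total score in 441 of 680 regions, equal in 61 and above in 178, and the median ratio was 0.854. With a complex, it was below in 1168 of 1590, equal in 73 and above in 349, with a median ratio of 0.760. The sources used here do not state what distinguishes both scores. The ratio fell as the total score rose, which is in part built in, since that score is its denominator. For the comparison of regions without and with a complex, the ratio was read within quartiles of the total score. It was 1 both without and with a complex in the lowest quartile, then 0.891 (0.806 to 0.911) and 0.855 (0.809 to 0.895), 0.813 (0.740 to 0.856) and 0.715 (0.675 to 0.752), and in the highest 0.557 (0.497 to 0.633) without and 0.581 (0.546 to 0.608) with a complex. Intervals overlapped in every quartile.

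The median distance to another region without a complex was 623456.5 bp, and 44 of 738 (5.96%, 4.37 to 7.92%) had one within 10 kb. For Notch-dependent regions with a complex, the nearest region without one lay at a median of 539949 bp and within 10 kb in 4.83% (3.84 to 5.97%). These 44 formed 22 pairs, and no run of 3 was found with gaps of 10 kb or less. The 3 pairs that span the fewest bases, 1412, 1465 and 1651 bp, were chr2:119139705-119140507 with chr2:119140561-119141116 (scores 258.04 and 161.01), chr1:20667917-20668468 with chr1:20668920-20669381 (110.0 and 117.69) and chr11:83036696-83037392 with chr11:83037439-83038346 (69.67 and 234.52). The members of these pairs lay 5264 and 6120 bp, 58066 and 59069 bp, and 45785 and 46151 bp from the nearest N1 region. Another Notch-dependent region of any kind lay within 10 kb of 15.3% (12.8 to 18.1%) of the set and of 21.7% (19.8 to 23.8%) of the regions with a complex. Other FAIRE regions lay within 10 kb of 25.5% (22.4 to 28.8%) and 35.5% (33.2 to 37.9%) of them. The nearest other Notch-dependent region also lacked a complex for 33.6% (30.2 to 37.1%) of the set, against 27.2% (25.1 to 29.4%) for those with a complex. Of all Notch-dependent regions 30.8% lacked a complex, a share within the interval of the set and above that of the regions with a complex. The intervals of both groups did not overlap, a difference that was not tested.

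The set was spread over all chromosomes used, with 77 regions on chromosome 1, 65 on chromosome 2, 54 on chromosome 13 and 6 on X. The share of Notch-dependent regions without a complex ran from 23.0% (42 of 183) on chromosome 8 to 41.9% (31 of 74) on chromosome 14. It was below that of the other FAIRE regions on 18 of 20 chromosomes, with 37.8 against 36.95% on chromosome 13 and 41.9 against 40.5% on chromosome 14 as the exceptions.

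**Figure D5:**
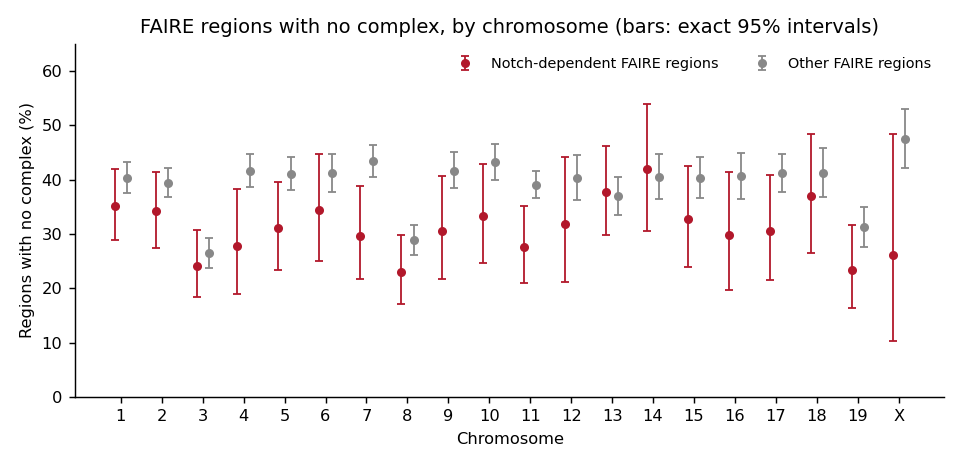
Share of FAIRE regions with no complex (y axis, %) by chromosome (x axis), for Notch-dependent (red) and other FAIRE regions (grey), with exact 95% intervals. Both groups are low on chromosomes 3, 8 and 19, and the grey points of the remaining chromosomes lie between 36.95 and 47.5%.

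Chromosomes 3, 8 and 19 stood below the remaining 17 in both groups. On these 3 together 23.5% (19.9 to 27.5%) of Notch-dependent and 28.5% (26.8 to 30.3%) of other FAIRE regions had no complex, against 32.8% (30.7 to 34.9%) and 40.9% (40.1 to 41.7%) on the rest. The 3 together held 10.2 SpDamID regions per FAIRE region, against 8.93, but chromosome 19 alone held 9.19. X held 11.9 and chromosome 15 held 11.7, and there 47.5 and 40.3% of other FAIRE regions had no complex. Notch-dependent regions were 15.7% of the 3248 FAIRE regions on chromosomes 3, 8 and 19, against 11.6% of 16231 on the rest. That share was also 16.3% on chromosome 1 and 16.1% on chromosome 13. On chromosomes 3, 8 and 19 the median distance to N1 was 4786 bp for Notch-dependent and 4732 bp for other regions without a complex. On the other 17 it was 8832 and 5842 bp. Single chromosomes did not all follow this order, since the Notch-dependent median was the longer one on chromosome 19 (5489.5 against 4353 bp) and the shorter one on chromosome 12 (5933.5 against 7130 bp). These 3 chromosomes were picked as the lowest after the values were seen. The part that the SpDamID regions per FAIRE region have in these shares and distances was not tested.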

How the data were processed

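The 9 deposited lists of regions were used, and none holds a value per library. Each of the 6 SpDamID lists holds, per the file headers, regions that passed a confidence level of 0.999 over Dam, and the deposited score is a whole number. Lists were matched to pairs and to N1wt by the initials in their names. The FAIRE peaks were called with MACS in Galaxy, and the deposited score is that of MACS, per the file headers. The sources used here do not state how Notch-dependent peaks were selected. The deposited ChIP table holds a signal for ChIP and for input and their ratio, identified by the quotient. The build is mm9, per the submitters' processing notes.

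From there, 1 base was added to FAIRE starts, and regions were compared on 19 autosomes and X, which left out 7 Notch-dependent and 43 total FAIRE regions. An overlap of 1 bp counted. Shares carry exact Clopper-Pearson and medians order-statistic 95% intervals (python 3.11.15, numpy 2.4.6, pandas 2.3.3, scipy 1.17.1). The overlap and distance functions gave 0 differences from plain loops over 900 simulated regions. Length bins follow the quartiles of the Notch-dependent list. Regions named are the 5 highest in score, longest, farthest from and nearest to N1, the 5 in ChIP with the highest ratio, and the 3 pairs of the shortest span. The members, comparisons and rules were chosen with earlier results of these data known. Planned sequence and gene annotation were not computed, since no mm9 genome or annotation was used.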

Additional observations from a re-analysis of the deposited data

How the results depend on the processing

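Of 59 alternative values, 50 stayed within 1.5 times the count or within the 95% interval of the reported value, and 9 did not. The number of regions without a complex, 738, was 912 with an overlap of 50% of the smaller region required, 1104 by peak centre, 1043 with SpDamID regions from their list's median score up and 549 with none within 1 kb allowed, and 298 among peaks from the median MACS score up. The median distance to N1, 7970 bp, was 5230 bp with 50% overlap, 12039 bp with none within 1 kb and 15138 bp with higher scored SpDamID regions. In the last setting 7.96% lay within 10 kb of another such region. Among peaks from the median MACS score up, the median length was 819 bp, the median score 190.27 and the share in the total list 96.6%. By ChIP regions of at least 300 bp, 1.22% lay in N1 ChIP, against 1.45% of Notch-dependent regions with a complex and 9.56% of other regions without one. Several of these settings admit or remove regions. A cut at the median MACS score raises the median score by itself. Allowing no SpDamID region within 1 kb removes the regions nearest to N1. What moved the other values was not tested. The lower share without a complex in Notch-dependent than in other FAIRE regions was 38.1 against 49.4% with 50% overlap and 46.1 against 61.8% by centre, but 22.9 (21.2 to 24.6%) against 25.2% (24.5 to 25.8%) with none within 1 kb, where the intervals meet. The fixed window, the lists left out and the 3 chromosomes left out were chosen after seeing the data. No paired analysis was possible because no list holds a value per library, and for the same reason no replicate could be left out.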
